A study of Mus musculus with 8 samples.

Results

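The proteasome is the protease complex that breaks down ubiquitin-tagged proteins, and the genes described here encode its subunits, activators and assembly factors. They were taken by symbol, as every gene row of the deposited table that begins with Psma, Psmb, Psmc, Psmd, Psme, Psmf or Psmg and a digit, which gave 53 of 38918 rows. The prefix also took 5 rows that are no proteasome gene in this sense: 3 pseudogene rows (Psmb5-ps, Psmb6-ps, Psmb7-ps2), Psme2b, and Psmc3ip, a meiotic recombination factor named for binding Psmc3. The other 48 rows are 7 alpha-ring genes, 4 structural, 3 constitutive catalytic and 3 immunoproteasome beta-ring genes, 2 tissue-specific core genes, 17 genes of the regulatory particle, 4 activator genes, the regulator gene Psmf1 and 7 assembly factor genes.

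RNA came from BMiFLT3 (15-3) cells, pro-B cells of a mouse B-cell precursor acute lymphoblastic leukaemia, after infection with a retroviral construct. One group overexpressed blue fluorescent protein (BFP) and served as the control, and the other overexpressed Klf2, a Krüppel-like zinc-finger transcription factor. Sample names in the file headers carry BFP in both groups, and the labels do not say more of the constructs. The sources used here do not state whether the line is a single clone, how long after infection RNA was taken, or which promoter drove each construct. The labels name 2 library kits, and a difference in kit cannot be told apart from the construct. Each group has 4 deposited samples, the lanes of 1 sequenced library, which differed by about sampling noise and were summed. Lanes that do not overlap between the groups thus show a difference between 2 libraries beyond sequencing noise, and no more. The share of all genes with such lanes was not counted. No test of the constructs is possible with 1 library each, and no p-value is given. Fewer cells of a type and less RNA per cell cannot be told apart in such bulk libraries.

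The BFP library held 30133978 exon reads and the Klf2 library 30835450. Klf2 itself was at 113 CPM (read counts relative to library size, scaled between libraries with TMM) in the library labelled Klf2 and at 10.1 CPM in BFP. Among the pro-B markers, Cd79a, Cd79b, Vpreb1, Igll1 and Pax5 were at 126 CPM or more in both libraries, while Rag1, Rag2 and Dntt were under 1 CPM. The summed level of 7 myeloid markers was 8.46 CPM in BFP and 5.52 CPM in Klf2, and that of 5 T-cell markers was 4.28 and 7.40 CPM, with Cd3e, Cd4 and Cd8a at 0. The dendritic and erythroid markers summed to under 1 CPM in both. Of 4 stromal and endothelial markers, Pecam1 was at 45.1 and 58.4 CPM, while Cdh5, Col1a1 and Col3a1 were under 1 CPM in both. The part of these markers in the results below was not tested.

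In the proteasome, a barrel-shaped core particle of stacked alpha and beta rings holds the catalytic sites, and a regulatory particle on its end binds, unfolds and threads the tagged substrate. The alpha ring gates the barrel, while 3 subunits of each beta ring cut peptide bonds with caspase-like (Psmb6), trypsin-like (Psmb7) and chymotrypsin-like (Psmb5) preference. Lymphoid cells and cells exposed to interferon gamma replace these subunits with Psmb9, Psmb10 and Psmb8, which forms the immunoproteasome, known for its role in making peptides for MHC class I.

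Nearly all proteasome genes had higher RNA levels in the Klf2 library, most by less than 2-fold. Together the 53 rows took 0.512% of exon reads in BFP (154197 reads) and 0.690% in Klf2 (212705 reads). Of the 53 rows, 47 reached 1 CPM in either library. Fold means the Klf2 over the BFP library in CPM, and the interval after it is the exact 95% interval of the ratio, which covers counting error only. The interval lay above 1 for 43 of the 47 genes, while 37.1% of 10850 genes at 1 CPM or more had one above 1. It lay below 1 for 2 genes, Psmd8 and Psmd9, against 37.3% of all genes. The interval held 1 for the other two, Psmb5 and Psmg4.

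The median fold was 1.46 over the proteasome genes and 0.996 over all genes at 1 CPM or more. A fold of at least 1.5 was seen in 20 of the 47, against 10.5% of all genes. Only Psma5 passed 2-fold with its interval excluding 1, at 2.05, a rule that 2.45% of all genes passed as higher and 5.67% as lower. Highly expressed genes were shifted upwards as a whole, with a median fold of 1.12 over the 2724 genes at 100 CPM or more, of which 60.7% had an interval above 1 and 30.2% one below. Among the 29 proteasome genes at that level, 28 intervals lay above 1 and 1, of Psmd8, below, and the median was 1.54. Both sets took genes at 100 CPM or more in either library, so a gene could enter through the Klf2 library alone. All 29 were at 107.7 CPM or more in Klf2, while the lowest in BFP was at 61.3 CPM. The count and median of the 29 thus depend in part on this filter. If the libraries were scaled on those 2724 genes, a setting chosen after seeing the data, the proteasome median was 1.30, with 38 intervals above 1 and 3 below, while all genes had 25.04% above and 52.5% below.

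**Figure D1:**
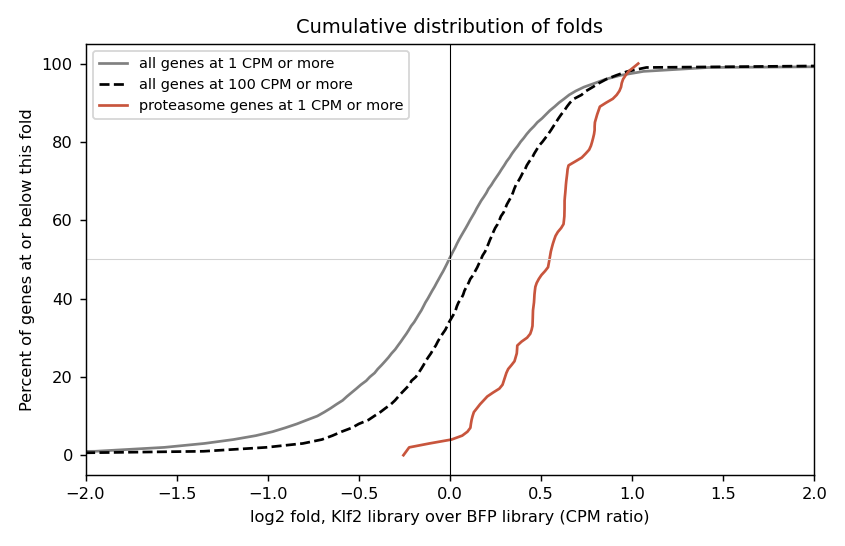
Cumulative distribution of the log2 fold (x axis, Klf2 over BFP library) as percent of genes at or below it (y axis), for all 10850 genes at 1 CPM or more, the 2724 genes at 100 CPM or more and the 47 proteasome genes. The proteasome curve lies to the right of both others over most of its range and ends near a log2 fold of 1, with 2 genes (Psmd8 and Psmd9) left of 0 beyond counting error.

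Promoter sequences from RefSeq (GRCm38.p6) were found for 40 of the 47 genes, as 43 windows of the 250 bases before a start site. None was found for Psmb1, Psmb2, Psmb7, Psmc3, Psmd3, Psmd7 and Psmg2. The windows shown were chosen for the catalytic pair with little difference and a middle one (Psmb5, Psmb6), an immunoproteasome gene (Psmb10), the alpha genes of highest fold (Psma1, Psma5) and the 2 lower genes (Psmd8, Psmd9). Capitals mark the CACCC box (CACCC or GGGTG), the letters that Krüppel-like factors are known to bind, and the antioxidant response element (TGACNNNGC on either strand), the element through which Nfe2l1 is known to act on proteasome genes. The windows run 5′ to 3′ on the strand of the gene, and those of Psmb10 and Psma5 were shortened where annotated exons begin.
Psmb5 (chr14:54617996-54618245, reverse strand): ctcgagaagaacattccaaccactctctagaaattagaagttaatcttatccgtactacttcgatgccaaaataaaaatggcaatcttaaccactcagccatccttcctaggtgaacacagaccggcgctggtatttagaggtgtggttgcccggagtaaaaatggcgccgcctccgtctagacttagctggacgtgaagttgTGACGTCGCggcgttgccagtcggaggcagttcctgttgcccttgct
Psmb6 (chr11:70525107-70525356, forward strand): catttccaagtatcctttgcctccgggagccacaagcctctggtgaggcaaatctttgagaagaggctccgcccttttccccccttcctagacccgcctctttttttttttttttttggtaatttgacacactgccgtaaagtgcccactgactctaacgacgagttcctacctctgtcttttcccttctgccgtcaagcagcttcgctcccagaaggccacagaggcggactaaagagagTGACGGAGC
Psmb10 (chr8:105938445-105938642, reverse strand): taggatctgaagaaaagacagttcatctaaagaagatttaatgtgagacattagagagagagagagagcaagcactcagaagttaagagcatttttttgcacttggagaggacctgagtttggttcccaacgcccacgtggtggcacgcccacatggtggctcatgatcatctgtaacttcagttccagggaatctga
Psma1 (chr7:114276117-114276366, reverse strand): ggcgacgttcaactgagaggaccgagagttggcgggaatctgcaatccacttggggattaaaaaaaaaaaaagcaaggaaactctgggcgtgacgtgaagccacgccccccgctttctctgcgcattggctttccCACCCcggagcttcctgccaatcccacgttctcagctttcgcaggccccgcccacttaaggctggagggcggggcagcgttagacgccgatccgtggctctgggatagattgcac
Psma5 (chr3:108256676-108256877, forward strand): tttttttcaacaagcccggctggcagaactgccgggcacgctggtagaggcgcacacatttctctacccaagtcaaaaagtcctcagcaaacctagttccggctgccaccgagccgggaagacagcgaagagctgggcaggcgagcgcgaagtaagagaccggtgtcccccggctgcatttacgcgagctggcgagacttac
Psmd8 (chr7:29180674-29180923, reverse strand): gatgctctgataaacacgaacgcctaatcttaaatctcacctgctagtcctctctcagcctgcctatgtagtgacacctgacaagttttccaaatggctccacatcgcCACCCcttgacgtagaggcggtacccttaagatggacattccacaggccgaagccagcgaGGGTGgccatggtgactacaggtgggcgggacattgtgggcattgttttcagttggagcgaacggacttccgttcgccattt
Psmd9 (chr5:123227940-123228189, forward strand): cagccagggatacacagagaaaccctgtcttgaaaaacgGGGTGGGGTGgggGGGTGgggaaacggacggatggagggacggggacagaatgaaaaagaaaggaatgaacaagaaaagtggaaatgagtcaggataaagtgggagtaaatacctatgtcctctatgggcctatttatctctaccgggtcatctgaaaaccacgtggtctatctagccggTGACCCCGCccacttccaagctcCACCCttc

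The CACCC box was found in 18 of the 43 proteasome windows (41.9%) and in 52.0% of all 32851 windows of this length. The median fold was 1.41 for the 16 genes with a CACCC box and 1.44 for the 24 without. Psmd9 had 4 such matches, of which the pair farthest from the start lies end to end, and Psmd8 had 2. Psma5 and Psmb10 had none. The antioxidant response element was found in 5 windows (11.6%), those of Psmb5, Psmb6, Psmc6, Psmd12 and Psmd9, and in 10.2% of all windows. In Psmb5 it begins 47 bases and in Psmb6 9 bases before the start.

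Of the other motifs searched on both strands, the GC box (GGGCGG) was in 23 windows (53.5%) against 32.7% of all, beside a median GC content of 57.6% against 52.4%. The interferon-stimulated response element was in 3 (6.98%) against 2.98%. The gamma-activated site (TTCNNNGAA) was in 2 (4.65%) against 7.02%. CCAAT was in 14 (32.6%) against 33.8% and the E box (CACGTG) in 4 (9.30%) against 6.02%. GC box and CACCC matches can overlap in G-rich stretches, and a match is a description of letters. The windows of Psmb8 and Psmb9 lie in annotated exons over all 250 bases and that of Psmd1 over 232, so the counts of each motif include transcribed sequence.

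The alpha ring had the highest median fold in the core, and all 7 of its genes were higher in the Klf2 library, from 1.45 to 2.05 with a median of 1.73. Psma5 (chromosome 3, 108256926 to 108279974, mm10) was at 33.0, 31.1, 29.99 and 32.7 RPKM (exon reads scaled by exon length and library total) in the 4 BFP lanes and at 64.2, 58.7, 61.9 and 59.3 RPKM in the Klf2 lanes. Lanes of the 2 libraries did not overlap, and the fold was 2.05 (1.92 to 2.18) from 1489 and 2928 reads. Only 25.1% of its reads were uniquely placed, and on those the fold was 2.10 (1.85 to 2.39). The 2-fold call of Psma5 ended with total-count scaling, with scaling on the genes at 100 CPM or more (1.82), with junction reads and with deposited RPKM.

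Psma7 (chromosome 2, 180036373 to 180042433) had the lowest alpha fold, 1.45 (1.397 to 1.507), at 42.2, 42.1, 43.6 and 42.2 RPKM in BFP lanes and 57.8, 57.2, 58.5 and 58.6 in Klf2 lanes. Its lanes were apart too, although the gap was smaller than for Psma5. Read for read, Psma5 over Psma7 was 0.321 in BFP and 0.452 in Klf2, a ratio of 1.41 (1.31 to 1.52) that does not depend on scaling between libraries. Between these lay Psma2 at 1.498, Psma3 at 1.57, Psma6 at 1.73, Psma4 at 1.75 and Psma1 at 1.91. Psma1 had 26.4, 25.1, 26.7 and 23.9 RPKM in BFP lanes and 45.3, 45.0, 49.3 and 44.0 in Klf2 lanes, without overlap. Psma3, with 15.4% of reads uniquely placed, had a fold of 1.56 on those reads, and Psma4, with 72.3%, one of 1.67.

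The 4 structural beta genes were higher as well, with a median fold of 1.37. Psmb2 (chromosome 4, 126677630 to 126709714) was highest in fold at 1.55 (1.49 to 1.62), with 79.7, 79.2, 82.8 and 78.2 RPKM in BFP lanes and 118.2, 117.7, 116.3 and 114.5 in Klf2 lanes. Psmb1 (chromosome 17, 15475721 to 15498276) had the highest level per length of all proteasome genes in both libraries and the lowest fold of this group, 1.16 (1.12 to 1.19). Its lanes read 180.7, 188.8, 187.9 and 184.2 RPKM in BFP and 200.8, 195.8, 199.96 and 209.6 in Klf2, so they did not overlap, but the distance was small. With scaling on the genes at 100 CPM or more the interval of Psmb1 held 1, at 1.03 (0.994 to 1.06). Psmb3 was at 1.37, with 33.4% of reads uniquely placed and 1.37 on those, and Psmb4 at 1.37.

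The 3 constitutive catalytic genes differed among themselves more than the immunoproteasome genes did. Psmb5 (chromosome 14, 54614120 to 54617995) was at 85.4, 86.4, 88.0 and 88.8 RPKM in BFP lanes and 86.25, 80.7, 81.9 and 90.03 in Klf2 lanes. These lanes overlapped, and the fold of 1.03 (0.980 to 1.09), from 2698 and 2681 reads, had an interval that held 1. With scaling on the genes at 100 CPM or more its interval lay below 1. Psmb6 (chromosome 11, 70525367 to 70527858) was at 67.0, 66.2, 65.4 and 66.9 RPKM in BFP lanes and 86.9, 88.9, 87.6 and 88.5 in Klf2 lanes, a fold of 1.41 (1.36 to 1.47) without overlap. Psmb7 (chromosome 2, 38588036 to 38644087) was at 82.6, 76.8, 81.6 and 80.4 RPKM in BFP and 144.0, 150.003, 145.8 and 142.0 in Klf2.

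The fold of Psmb7 was 1.93 (1.85 to 2.01), from 3467 and 6414 reads of which 97.9% were uniquely placed. Read for read, Psmb7 over Psmb5 was 1.28 in BFP and 2.39 in Klf2, a ratio of 1.86 (1.74 to 1.99). In BFP the 3 constitutive genes lay between 66.4 and 87.1 RPKM with Psmb5 at the top, and in Klf2 between 84.7 and 145.4 RPKM with Psmb5 at the bottom. The order per length depends on the exon length of each row. In reads Psmb6 was above Psmb5 in both libraries, at 4418 against 2698 in BFP and 5983 against 2681 in Klf2. The order of Psmb5 and Psmb6 in the Klf2 library, at 84.7 and 88.0 mean RPKM, was not clear of the spread between lanes.

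All 3 immunoproteasome catalytic genes were higher in the Klf2 library. Psmb8 (chromosome 17, 34197721 to 34201454) was at 29.3, 27.2, 27.2 and 28.0 RPKM in BFP lanes and 46.8, 44.3, 44.3 and 43.6 in Klf2 lanes, a fold of 1.70 (1.62 to 1.79). Only 38.7% of its reads were uniquely placed, with another row, Gm20496, over the same region, and on uniquely placed reads the fold was 1.66 (1.54 to 1.798). Psmb9 (chromosome 17, 34181988 to 34187764) was at 6.45, 6.31, 6.91 and 6.05 RPKM in BFP lanes and 8.21, 9.29, 8.998 and 8.81 in Klf2 lanes, a fold of 1.46 (1.33 to 1.597). Neither gene had lanes that overlapped between the libraries.

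Psmb10 (chromosome 8, 105935728 to 105938392) was at 15.2, 15.9, 17.1 and 16.0 RPKM in BFP lanes and at 22.4, 21.6, 25.8 and 23.1 RPKM in Klf2 lanes. Its fold was 1.54 (1.399 to 1.694) from 724 and 1071 reads, of which 40.8% were uniquely placed, and the lanes were again apart. Gm16156 overlaps its row, and on uniquely placed reads the fold was 1.503 (1.294 to 1.747).

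**Figure D2:**
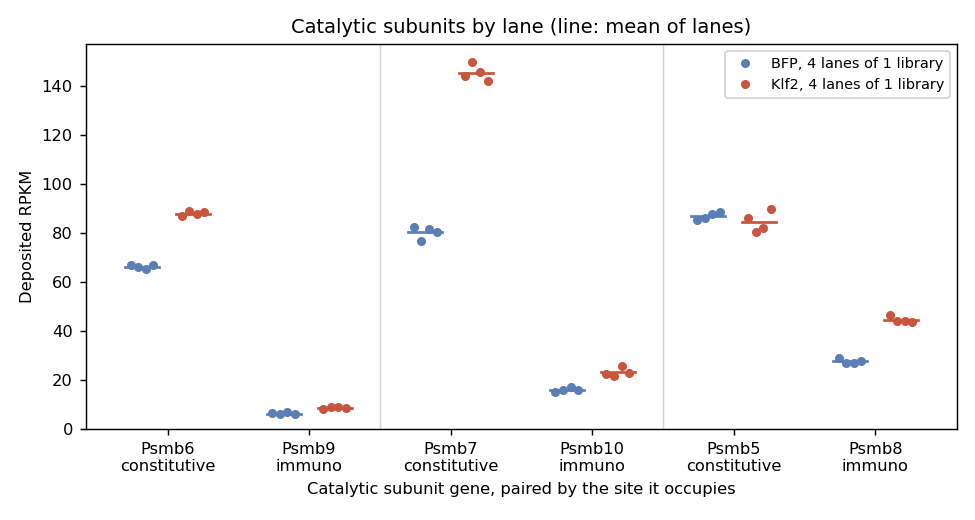
Deposited RPKM (y axis, from 0) of the 6 catalytic subunit genes (x axis, paired by catalytic site), with 1 point for each of 4 lanes and a line at the lane mean, in the BFP and Klf2 libraries. The lanes of Psmb5 overlap between libraries, those of the other 5 genes do not, and Psmb7 shows the widest gap, from about 80.3 to 145.4 RPKM. Lanes are runs of 1 library per group, and the share of all genes without overlap was not counted.

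As a class, immunoproteasome genes gained little on constitutive ones. The summed reads of Psmb8, Psmb9 and Psmb10 over those of Psmb5, Psmb6 and Psmb7 were 0.404 in BFP (4276 to 10583 reads) and 0.444 in Klf2 (6691 to 15078 reads), a ratio of 1.10 (1.05 to 1.15). On uniquely placed reads the ratio was 1.06 (0.995 to 1.12), and on junction reads 1.05 (0.964 to 1.14), with intervals that held 1. Per length, the immunoproteasome genes made up between 17.5% and 17.9% of the RPKM of all 6 genes in BFP lanes and between 19.1% and 20.03% in Klf2 lanes, so constitutive subunits remained the larger part in both. The exon length in use ran from 871 bases for Psmb5 to 3659 for Psmb9. Shares per length therefore depend on the exons annotated for each row.

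The 3 catalytic sites differed from each other. At the chymotrypsin-like site, Psmb8 over Psmb5 was 1.007 in BFP and 1.66 in Klf2, a ratio of 1.65 (1.53 to 1.77). For the caspase-like pair, Psmb9 over Psmb6, it was 1.04 (0.939 to 1.14), which holds 1. For the trypsin-like pair, Psmb10 over Psmb7, it was 0.7996 (0.721 to 0.888), in favour of the constitutive gene. Uniquely placed reads gave 1.64 for the chymotrypsin-like, 1.04 for the caspase-like and 0.782 for the trypsin-like pair.

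Core genes known from single tissues were at or near 0. Psma8, an alpha subunit of the testis, had no exon read in either library, which allows up to 0.0996 CPM in BFP and 0.0973 in Klf2 (3 reads, before TMM scaling). Psmb11, the catalytic subunit of thymus epithelium, had 1 read in BFP and 10 in Klf2, under 1 CPM in both, with a ratio of 10.4 and a counting interval of 1.48 to 451.6. The 3 pseudogene rows had no exon read, and Psme2b had 12 and 14 reads, none of them uniquely placed. Psmc3ip was at 13.7 and 21.2 CPM, a fold of 1.55 (1.37 to 1.75). Without it, 42 of 46 genes had an interval above 1.

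In the regulatory particle, all 6 genes of the ATPase ring, which unfolds substrates and opens the gate, were higher, with a median fold of 1.51. Psmc1 (chromosome 12, 100110186 to 100123364) was at 95.6, 92.2, 88.8 and 86.6 RPKM in BFP lanes and 163.0, 159.0, 160.1 and 157.2 in Klf2 lanes, a fold of 1.87 (1.81 to 1.94). Psmc2 (chromosome 5, 21785283 to 21803787) was at 20.6, 21.4, 20.6 and 22.0 RPKM in BFP and 24.8, 25.6, 25.6 and 25.7 in Klf2, a fold of 1.28 (1.22 to 1.33). Neither gene's lanes overlapped, and the 2 intervals were apart from each other. Psmc4 was at 1.37, Psmc5 at 1.48, Psmc3 at 1.55 and Psmc6 at 1.73.

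The 3 non-ATPase genes of the base hold the scaffold subunits Psmd1 and Psmd2 and the ubiquitin receptor Psmd4. Psmd1 (chromosome 1, 86064387 to 86139151) was at 24.1, 25.4, 25.6 and 25.8 RPKM in BFP lanes and 45.8, 47.7, 46.5 and 46.6 in Klf2 lanes, a fold of 1.97 (1.89 to 2.04) just short of 2. Psmd4 (chromosome 3, 95032694 to 95042614) was at 42.9, 42.0, 42.8 and 42.9 RPKM in BFP and 48.7, 48.7, 48.7 and 49.3 in Klf2, a fold of 1.22 (1.17 to 1.27). Psmd2 lay between at 1.65. Lanes were apart for Psmd1 and Psmd4, with a far wider gap for the scaffold gene.

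Of the 8 lid genes, 7 were higher and 1, Psmd8, was lower. The lid removes ubiquitin chains through the metalloprotease Psmd14, which had a fold of 1.56 (1.47 to 1.65). Psmd12 (chromosome 11, 107479484 to 107504362) was highest, at 22.2, 22.7, 21.7 and 22.8 RPKM in BFP lanes and 37.5, 36.9, 36.8 and 37.6 in Klf2 lanes, a fold of 1.77 (1.68 to 1.87) without overlap. Psmd11 was at 1.29, Psmd6 at 1.47, Psmd7 at 1.54, Psmd13 at 1.56 and Psmd3 at 1.72.

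Psmd8 (chromosome 7, 29174188 to 29180701), a lid subunit, was at 162.7, 168.3, 165.1 and 162.5 RPKM in BFP lanes and 133.1, 131.8, 132.5 and 133.9 in Klf2 lanes. All Klf2 lanes lay below all BFP lanes, and the ratio was 0.858 (0.832 to 0.885) from 9013 and 7430 reads, 100% of them uniquely placed. In BFP it was the most abundant regulatory-particle gene per length, and in Klf2 Psmc1, at a mean of 159.8 RPKM, stood above it at 132.8. Read for read, Psmd1 over Psmd8 was 0.452 in BFP and 1.04 in Klf2, a ratio of 2.29 (2.18 to 2.41). No other gene row overlaps Psmd8.

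**Figure D3:**
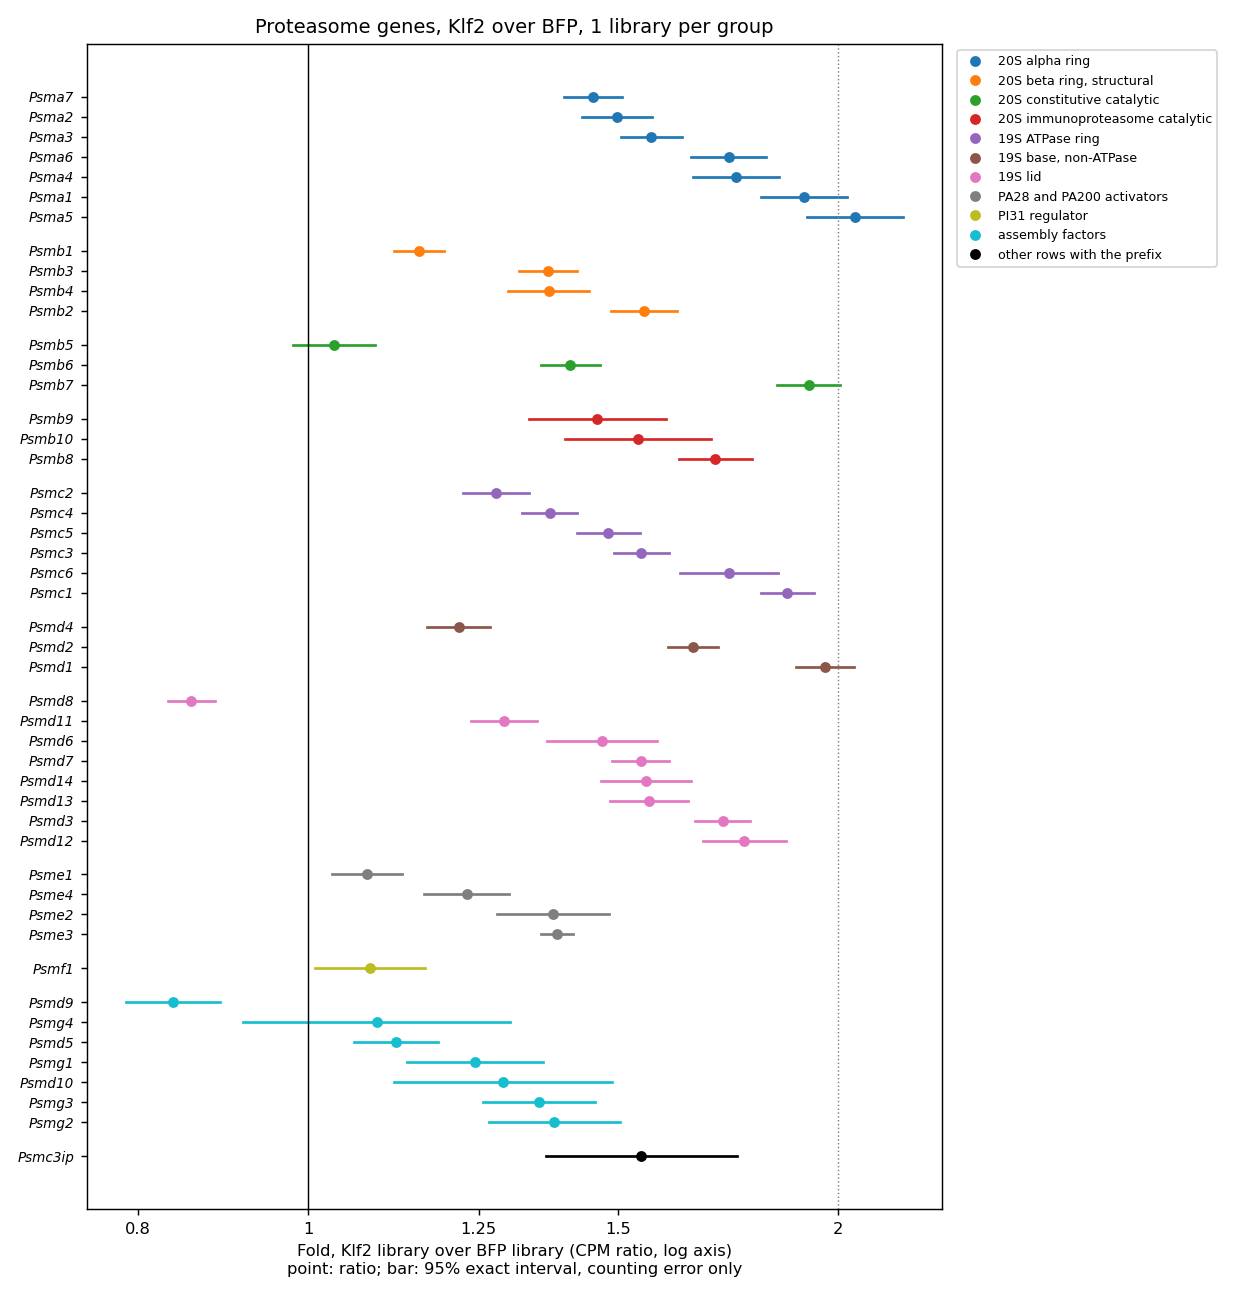
Fold of the Klf2 over the BFP library (x axis, log scale) for the 47 genes at 1 CPM or more (y axis), coloured by particle. Points are CPM ratios and bars are exact 95% intervals that cover counting error only, with lines at 1 and 2. Psmd8 and Psmd9 lie left of 1, Psmb5 and Psmg4 cross it, and Psma5 is the only point right of 2.

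Activators were less shifted than the core and the regulatory particle, with a median fold of 1.30 over 4 genes, and the difference between these groups was not tested. Psme3, the nuclear PA28 gamma subunit (chromosome 11, 101316213 to 101323537), had the most reads of any proteasome gene, 15738 in BFP and 20947 in Klf2. It was at 148.4, 150.3, 150.9 and 151.0 RPKM in BFP lanes and 196.1, 196.1, 195.4 and 194.5 in Klf2 lanes, a fold of 1.38 (1.36 to 1.41). Psme1 (chromosome 14, 55578123 to 55581529), the alpha subunit of the interferon-inducible PA28 ring, was at 48.0, 41.7, 46.1 and 47.6 RPKM in BFP and 45.5, 46.4, 47.5 and 46.8 in Klf2. Lanes of Psme1 overlapped, with a fold of 1.08 (1.03 to 1.13), while those of Psme3 did not.

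Its ring partner Psme2, which lies 5911 bases further along chromosome 14, was at 1.38 (1.28 to 1.48), with 44.97% of reads uniquely placed and 1.33 on those. Read for read, Psme2 over Psme1 was 0.354 in BFP and 0.452 in Klf2, a ratio of 1.28 (1.17 to 1.39). Psme4, which encodes the single-chain activator PA200, was at 1.23 (1.16 to 1.30). Psmf1, which encodes the regulator PI31 (chromosome 2, 151715812 to 151744186), was at 6.49, 6.52, 6.45 and 6.26 RPKM in BFP lanes and 6.83, 6.80, 6.28 and 6.32 in Klf2 lanes. These lanes overlapped, the fold was 1.08 (1.009 to 1.166), and it was 0.893 on junction reads, so no direction is given for Psmf1. With scaling on the genes at 100 CPM or more, Psme1 and Psmf1 were at 0.960 and 0.964. The intervals of both held 1 with total-count scaling and without the second lane of each library, where Psme1 was at 1.05 (0.993 to 1.10) and Psmf1 at 1.07 (0.987 to 1.17), and that of Psmf1 also without the first lane.

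Assembly factors, which chaperone the rings and leave the finished particle, had a median fold of 1.24 over 7 genes, 5 of them with an interval above 1. Psmg2, a chaperone of the alpha ring, was highest at 1.38 (1.266 to 1.503), with 25.2, 24.8, 25.3 and 24.7 RPKM in BFP lanes and 33.9, 31.98, 31.6 and 32.1 in Klf2 lanes, clear of each other. Its partner Psmg1 was at 1.24 (1.14 to 1.36). Psmg3 was at 1.35, with 18.1% of reads uniquely placed and 1.28 on those, and its partner Psmg4 at 1.09 (0.918 to 1.30), an interval that held 1. Psmd10 and Psmd5, chaperones of the ATPase ring, were at 1.29 (1.12 to 1.49) and 1.12 (1.06 to 1.19), and Psmd5 was at 0.997 with scaling on the genes at 100 CPM or more and at 1.05 (0.997 to 1.11) with total-count scaling. The interval of Psmd10 held 1 on junction reads (1.13, 0.858 to 1.49) and with scaling on the genes at 100 CPM or more (1.15, 0.995 to 1.32). The interval of Psmg1 held 1 on junction reads (1.15, 0.988 to 1.33).

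Psmd9 (chromosome 5, 123228190 to 123250131), another chaperone of the ATPase ring, was the second lower gene. It was at 14.1, 13.8, 14.6 and 13.9 RPKM in BFP lanes and at 11.5, 10.5, 11.0 and 11.5 RPKM in Klf2 lanes. The lanes did not overlap, and the ratio was 0.838 (0.787 to 0.891), from 2288 and 1842 reads. On the 93.5% of reads that were uniquely placed it was 0.849. On junction reads the interval of Psmd9 held 1.

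Counts were similar on uniquely placed reads. Of the 47 genes, 12 had under 90% uniquely placed reads. On uniquely placed reads 43 intervals again lay above 1, the same 43 genes, and 2 below, against 36.7% and 36.2% of 10552 genes, and no gene's fold differed by more than 10% from that on all reads. On junction reads, which cross from exon to exon, 40 lay above 1, against 28.1% of 9802 genes, and 1 below, against 25.8%.

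Reads outside exons had lower folds than exon reads in most proteasome genes. These are the gene reads that do not fall on exons, which can come from introns of unspliced RNA or from another row in the same region, and 42 proteasome genes had at least 1 CPM of them in either library. Their median fold was 1.02, against 0.989 over 10398 genes. The interval lay above 1 for 14 of the 42, against 28.7% of all genes, and below 1 for 7, against 28.9%. Among the 24 genes that no other row overlaps the median was 1.0005, with 7 intervals above 1 and 5 below. On exon reads, the 26 non-overlapped genes at 1 CPM or more had a median fold of 1.37. A test of the difference between the 2 kinds of read was not made.

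Single genes differed in this respect. Psmd1 had 514 and 1018 reads outside exons, a fold of 2.06 (1.85 to 2.30) close to its exon fold of 1.97, although 3 other rows overlap it. For Psmd11, with no overlapping row, the fold outside exons was 1.897 (1.705 to 2.113) against 1.29 on exons. Psmd2, also free of overlap, was at 0.749 (0.583 to 0.960) outside exons against 1.65 on exons, and Psmd6 at 0.811 (0.731 to 0.900) against 1.47. Psmc1 was at 1.10 (0.954 to 1.28) against 1.87. Psmd8 was lower in both, at 0.667 (0.573 to 0.775) outside exons.

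**Figure D4:**
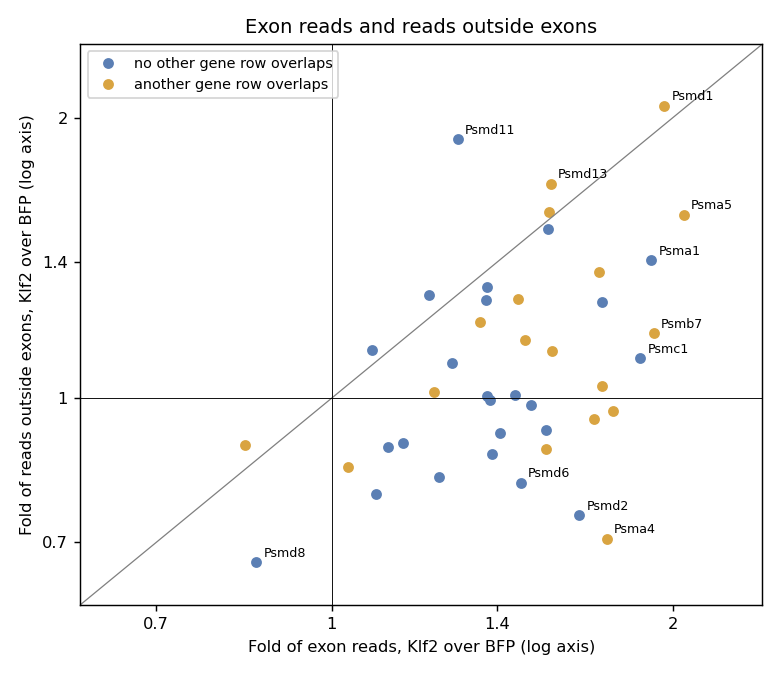
Fold of exon reads (x axis, log scale) against fold of reads outside exons (y axis, log scale), Klf2 over BFP library, for the 42 proteasome genes with at least 1 CPM of both, coloured by whether another gene row overlaps. Most points lie below the diagonal line of equal folds, with Psmd11 well above it and Psmd2, Psma4 and Psmd6 well below. Of the 42 genes, 26 lie on the same side of 1 for both kinds of read. Nearly all exon folds are above 1, so this count mostly follows the folds outside exons. The share over all genes was not counted.

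Genes of proteins that bind the proteasome mostly had higher RNA levels in the Klf2 library too. Of 12 listed partners with at least 1 CPM, 10 had an interval above 1 and 1 below, with a median fold of 1.28. Among all genes, 37.1% at 1 CPM or more and 60.7% at 100 CPM or more had an interval above 1. An interval below 1 was found for 37.3% and 30.2% of them. Pomp, the maturation factor of the core particle, was at 119 and 206 CPM, a fold of 1.73 (1.658 to 1.799), within the range of the core genes. The deubiquitinase Uchl5 was at 31.9 and 54.3 CPM (1.70, 1.57 to 1.84), Txnl1 at 103.7 and 157.6 CPM (1.52) and the deubiquitinase Usp14 at 109.9 and 162.2 CPM (1.48).

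Regulators known to act on proteasome genes were mixed, and the best known of them was lower. Nfe2l1, the transcription factor that restores proteasome gene expression when the proteasome is inhibited, was past 2-fold lower, with 11895 reads in BFP and 5462 in Klf2. Its level was 383 CPM in BFP and 183 CPM in Klf2, and the fold was 0.478 (0.463 to 0.493). Its relative Nfe2l2 had 208.5 CPM in BFP and 156.0 CPM in Klf2 (fold 0.748, 0.720 to 0.777), and the small MAF partner Maff was also past 2-fold lower, at 5.25 against 10.6 CPM. Nfyb, a CCAAT-binding subunit, was at 68.7 against 50.5 CPM, a fold of 1.36. In that list of 12 measured genes, 7 intervals lay above 1 and 5 below, with a median of 1.09. Keap1 and Ddi2, counted above 1 at 1.24 and 1.06, were at 0.905 and 0.988 on uniquely placed reads. Those reads were 33.7% and 43.2% of their totals. Of all genes at 1 CPM or more, 37.1% lay above 1, 37.3% below, and 5.67% were past 2-fold lower. RNA levels do not give the processing or nuclear amount of Nfe2l1, which is known to be controlled after translation.

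The listed inducers of immunoproteasome genes were lower throughout, while Psmb8, Psmb9 and Psmb10 were higher. All 14 had an interval below 1, with a median of 0.742, and 2 were past 2-fold lower. Of all genes, 37.3% at 1 CPM or more and 30.2% at 100 CPM or more had an interval below 1. Past 2-fold lower were 5.67% of those at 1 CPM or more. Irf7 had 28 reads in Klf2 against 260 in BFP, a ratio of 0.112 (0.0730 to 0.166), and Irf9 507 against 1083, a ratio of 0.487 (0.438 to 0.542). Both are transcription factors of the interferon response. The interferon gamma receptor gene Ifngr2 was at 36.4 against 64.4 CPM and the kinase gene Jak2 at 18.3 against 32.4 CPM.

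Tap1, which pumps peptides into the endoplasmic reticulum, lies head to head with Psmb9 on chromosome 17, and the 2 rows overlap (34187553 to 34197225 for Tap1). Tap1 had 95.4 CPM in BFP and 78.2 CPM in Klf2 (fold 0.821, 0.777 to 0.867), beside the fold of 1.46 of Psmb9. Reads in the shared stretch cannot be told apart if counting did not use strand, and 96.5% of Psmb9 reads were uniquely placed. In the list of peptide transport and trimming genes, 8 of 12 intervals lay above 1 and 2 below, with a median of 1.13. The share above 1 over all genes was 37.1% at 1 CPM or more and 60.7% at 100 CPM or more. The shares below 1 were 37.3% and 30.2%. The cytosolic peptidases Thop1 (1.78, 1.68 to 1.89) and Lap3 (1.65, 1.57 to 1.73) were highest, followed by Pdia3 (1.37) and Blmh (1.27).

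**Figure D5:**
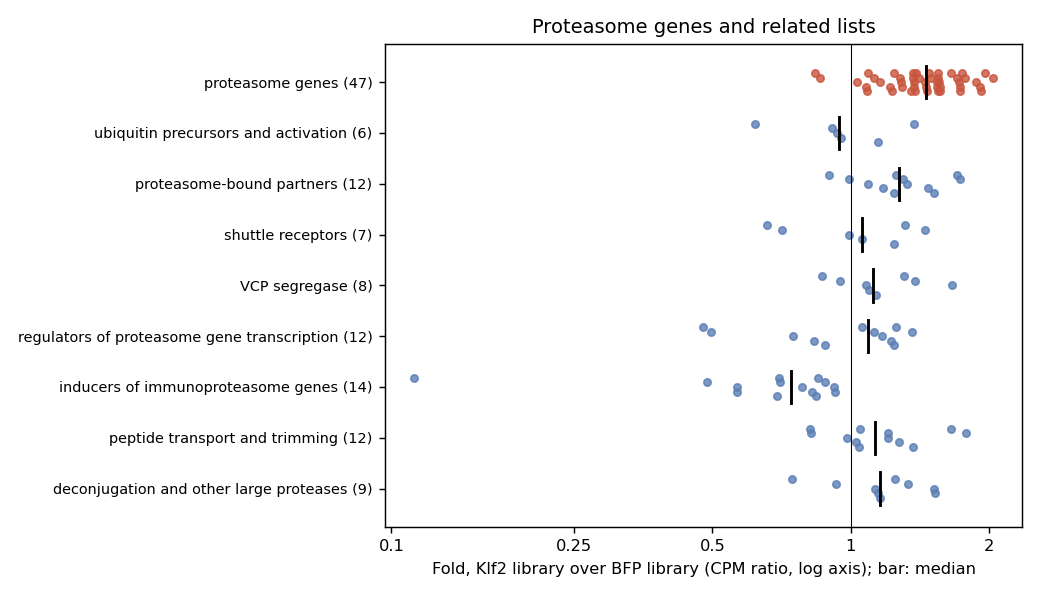
Fold of the Klf2 over the BFP library (x axis, log scale) for the 47 proteasome genes and for each measured gene of 8 related lists (y axis, number of genes in brackets), with a bar at the median. The 14 inducers of immunoproteasome genes all lie left of 1, with Irf7 farthest at 0.112. Of the 47 proteasome genes, 45 points lie right of 1, and 43 of these genes have an interval above 1. Among all genes at 1 CPM or more, 37.1% had an interval above 1 and 37.3% one below.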

How the data were processed

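Poly(A) RNA was sequenced on an Illumina HiSeq system, per the labels' protocols, which name 2 library kits without saying which library had which. CASAVA 1.8.2 and the build mm10 stand in the submitters' processing notes. The aligner, counting program, annotation and strand setting are not stated in the sources available here. The authors deposited counts per gene and lane, per the file headers: all exon reads, uniquely placed exon reads, junction reads and gene reads. The deposited RPKM (written with decimal commas) was recomputed from these to within 0.0258.

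Lanes of a group had a chi-square per degree of freedom of 1.30 (BFP) and 1.28 (Klf2) on exon reads over genes with at least 40 reads, and 0.876 and 1.01 over proteasome genes, and were summed. On gene reads, from which the reads outside exons were taken, it was 1.55 (BFP) and 1.52 (Klf2), above the limit of 1.5 set for summing. Over proteasome genes it was 0.995 and 1.05 there. The lanes of a group share a description in the labels, so n = 1 per group. Counts were scaled with TMM (edgeR 4.0.16, R 4.3.3). The ratio interval is the exact Clopper-Pearson interval conditional on summed reads, and ratios of read ratios have exact conditional intervals (scipy 1.17.1). These cover counting error only, without molecular identifiers. Genes needed 1 CPM in either library, and those described as at 100 CPM or more needed that level in either library. The ratio intervals were checked on counts simulated with counting error only, so the check does not cover the spread between libraries. Alternatives included DESeq2 1.42.0 size factors.

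Described in full are the catalytic genes, genes past 2-fold and the highest and lowest gene of each particle. From related lists, genes past 2-fold and up to 4 with the largest difference are named. Psma1, Psmd2, Psmd6, Psmd11, Tap1, Keap1 and Ddi2 were singled out after their values were seen, as were the promoter windows shown. Some genes of the related and marker lists are not reported here. The members and lists were chosen with earlier results of these data known.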

Additional observations from a re-analysis of the deposited data

How the results depend on the processing

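No paired analysis was possible because each group is 1 library, its 4 numbered lanes are runs of that library, and no test was made. With 1 lane left out of both groups in turn, the count of proteasome genes with an interval above 1 ran from 41 to 43, that below 1 stayed at 2, that past 2-fold at 1, and the median fold ran from 1.44 to 1.47. The ratio of immunoproteasome to constitutive reads, 1.10 with all lanes, ran from 1.09 to 1.10 in the same way. With junction reads 1 interval lay below 1 (Psmd8), 0 genes were past 2-fold, and the immunoproteasome ratio was 1.05 (0.964 to 1.14). The number past 2-fold was 0 also with total-count scaling, with deposited RPKM and with scaling on the genes at 100 CPM or more, and 2 with no minimum CPM, where Psmb11 joined Psma5 on 11 reads. Scaling on the genes at 100 CPM or more gave a median of 1.30 and moved the median log2 fold of all genes from -0.01 to -0.18. It put Psme1 at 0.960, Psmd5 at 0.997 and Psmf1 at 0.964, and junction reads put Psmf1 at 0.893. These were the only changes of side for genes whose interval excluded 1 among 563 recomputed folds. Scaling on the genes at 100 CPM or more divides every fold by their median of 1.125, so folds between 1 and that value fall below 1. The cause of the change of Psmf1 on junction reads was not tested. Deposited RPKM gives no interval, so counts of intervals were not run on it. Depth limits Psma8, Psmb11 and Psme2b, and summed lanes say nothing of the spread between cultures.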

Other observations

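Ubiquitin genes and their carriers did not follow the proteasome genes as a group. Of 6 ubiquitin precursor and activation genes, 2 had an interval above 1 and 4 below, with a median of 0.944. The gene of the activating enzyme Uba1 was at 665 against 484 CPM, a fold of 1.37. Among 7 shuttle receptors 4 intervals lay above 1 and 2 below. Beside these 2 lists, 37.1% of all genes at 1 CPM or more had an interval above 1 and 37.3% one below. At 100 CPM or more the shares were 60.7% and 30.2%. The autophagy receptors Sqstm1 (0.658, 0.634 to 0.682) and Nbr1 (0.707, 0.667 to 0.750) were lower, and the ubiquilin Ubqln1 (1.45, 1.411 to 1.499) and the shuttle Rad23b (1.31) were higher.

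Of 8 genes around the VCP segregase, 6 had an interval above 1 and 2 below, with Vcp itself at 318 against 192 CPM, a fold of 1.66 on all reads and of 1.58 on the 14.4% that were uniquely placed. Among 9 genes of deconjugation and other large proteases, 7 lay above 1 and 2 below. The share of all genes above 1 was 37.1% at 1 CPM or more and 60.7% at 100 CPM or more. Whether these lists differ from other genes of like level was not tested. The mitochondrial protease gene Lonp1 had 276 CPM in BFP and 206 CPM in Klf2 (fold 0.745, 0.721 to 0.770), and the deubiquitinase gene Usp7 at 358 against 236 CPM, a fold of 1.52.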
